A study of Mus musculus with 6 samples.

Results

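The genes described here are 8 that encode proteins which bind RNA or modify such proteins. They are the cold-inducible RNA-binding protein genes Cirbp and Rbm3, the SR splicing factor genes Srsf2, Srsf3, Srsf5 and Srsf7, the heterogeneous nuclear ribonucleoprotein gene Hnrnpdl, and the kinase gene Clk1. They were matched by symbol among 32285 features, and Cirbp, Srsf5 and Hnrnpdl were selected on being lower at ZT16 in an earlier look at the same libraries. Differences between the collection times are therefore given as a description, with no test.

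The libraries came from tibialis anterior muscles of both hindlimbs of wild-type mice, taken at ZT16 or ZT4 (zeitgeber time, hours after lights on) from muscle that was uninjured (day 0) or on day 1 or day 3 after injury with cardiotoxin, a snake toxin that kills muscle fibres. The 6 groups were thus day 0 ZT16, day 0 ZT4, day 1 ZT16, day 1 ZT4, day 3 ZT16 and day 3 ZT4, with 1 droplet library (10x Genomics, 3-prime) per group. Mononucleated cells that excluded propidium iodide were sorted, and no genotype other than wild type was used. Strain, sex, age, body temperature and the number of animals per library are not given in the sources used here. Because each group is 1 library, collection time cannot be told apart from library, and intervals below cover counting error of UMIs (unique molecular identifiers, 1 per captured RNA molecule) only.

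CIRBP and RBM3 are small glycine-rich proteins with an RNA recognition motif, and their RNA rises in mammalian cells on mild cooling. In mouse tissues Cirbp RNA is known to follow the daily cycle of body temperature, which is lower in the resting phase, and CIRBP is known to affect polyadenylation and splicing of other RNAs. SR proteins bind exonic enhancers and guide the choice of splice sites, CLK kinases phosphorylate their arginine-serine domains, and many genes of both kinds adjust their own RNA through poison exons or retained introns, so that 3-prime counts do not show how much of the RNA encodes full protein.

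Total counts per library lay between 72747703 and 132221721 UMIs in 8626 to 14079 barcodes, and 58469 of 68724 barcodes were kept as cells. Pairs of libraries shared 21 to 65 barcodes. Cells fell into 36 clusters, of which 32 were named from marker genes as X-like classes and 4 were left unnamed. Classes with at least 50 cells in both libraries of a day gave 10 comparisons on day 0, 7 on day 1 and 9 on day 3. Levels are CPM, the UMIs of a gene scaled to a fixed total of all UMIs in the cells of a class and library. A comparison counts as lower or higher when the CPM differs by at least 1.5-fold and the pair of libraries holds at least 30 UMIs of the gene, which 202 comparisons of a member with a class did. The T cell-like cluster also had the natural killer genes Gzma, Nkg7 and Gzmb among its leading genes, and the mature muscle-like droplets had a median mitochondrial share of 0.138% at ZT16 and 0.151% at ZT4 of day 0.

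Cirbp (ENSMUSG00000045193, chr10:80165985-80172786, plus strand, GRCm38, GENCODE vM21) was below its ZT4 level at ZT16 in each of the 25 comparisons in which it had 30 UMIs. The level was at least 1.5-fold lower at ZT16 in 8 of 10 classes on day 0, 4 of 7 on day 1 and 7 of 8 on day 3, and the median log2 ratio over classes was -1.34, -0.70 and -1.26 on days 0, 1 and 3. No comparison was at least 1.5-fold higher. Of all gene-by-class comparisons, 7.75%, 11% and 5.4% were lower by that threshold on the 3 days and 7.71%, 6.99% and 7.12% higher, from which nothing is read, as Cirbp was selected on this contrast.

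A promoter stretch is shown for Cirbp because a mild cold response element, TCCCCGCC, has been described upstream of the mouse gene, and for Srsf5 and Srsf7 to set beside it an SR gene that was often lower at ZT16 and one that was never 1.5-fold lower. The stretches are reference sequence from RefSeq (GRCm38.p6), cut to the part of the 250 bases before the start that overlaps no GENCODE exon, and capitals mark TCCCCGCC. The table held 6 of the 8 members, without Rbm3 and Clk1.
Cirbp: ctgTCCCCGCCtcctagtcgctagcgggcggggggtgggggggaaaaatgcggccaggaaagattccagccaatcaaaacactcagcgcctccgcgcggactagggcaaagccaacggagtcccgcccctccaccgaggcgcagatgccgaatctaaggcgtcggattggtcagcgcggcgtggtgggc
Srsf5: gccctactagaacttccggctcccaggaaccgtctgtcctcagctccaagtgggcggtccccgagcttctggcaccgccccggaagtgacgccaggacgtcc
Srsf7: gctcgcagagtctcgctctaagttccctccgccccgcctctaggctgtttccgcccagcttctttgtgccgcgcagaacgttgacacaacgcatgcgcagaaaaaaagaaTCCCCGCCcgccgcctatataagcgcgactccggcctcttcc

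The Cirbp stretch is chr10:80167589-80167777 on the plus strand, the Srsf5 stretch chr12:80945397-80945498 on the plus strand and the Srsf7 stretch chr17:80207308-80207459, read on the minus strand. RefSeq gives Cirbp 2 starts, both inside the longer span that GENCODE gives the gene, and the stretch shown precedes the upstream one. The letters TCCCCGCC begin 247 bases before that Cirbp start and 44 bases before the Srsf7 start, are not in the window of the other Cirbp start, and were found in the windows of no other matched member on either strand. Of 32851 promoters, 4.64% hold them in the same 250 bases. The E-box CACGTG (6.02% of promoters) and the heat shock element core GAANNTTC (6.69%) were in none of the members' windows. Such matches describe letters and not binding.

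On day 0, endothelial-like cells had 43.5 CPM of Cirbp at ZT16 and 161 CPM at ZT4 (447 and 1241 UMIs in 3261 and 2730 cells), 3.69-fold lower at ZT16 with a log2 ratio of -1.88 (95% counting interval -2.04 to -1.73). Mural-like cells, which wrap blood vessels, had 69.3 CPM at ZT16 and 227 CPM at ZT4 (log2 -1.71, interval -1.95 to -1.47). Monocyte-macrophage-like cells, led on that day by Lyve1 and Cd163, had 35.1 CPM at ZT16 and 104 CPM at ZT4 (log2 -1.57, interval -1.82 to -1.33). In these 3 classes the ZT16 library was low and the counting intervals of the pair did not meet.

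Fibro-adipogenic-like cells, the stromal progenitors of muscle, had 38.0 CPM at ZT16 and 100.2 CPM at ZT4 on day 0 (log2 -1.40, interval -1.50 to -1.29). Myogenic-like cells, led by Chodl, Myf5 and Pax7 of satellite cells, had 88.2 CPM at ZT16 and 194 CPM at ZT4 (log2 -1.13, interval -1.28 to -0.99). Dendritic-like cells had 37.2 CPM at ZT16 and 67.0 CPM at ZT4 (log2 -0.85, interval -1.20 to -0.51). Mature muscle-like droplets stood apart, with 33.0 CPM at ZT16 and 33.9 CPM at ZT4 (329 and 235 UMIs, log2 -0.04, interval -0.28 to 0.21). Of the 3 smaller classes, glial-like and tenocyte-like cells were at least 1.5-fold lower, and T cell-like cells had 127 CPM at ZT16 and 160.4 CPM at ZT4, with an interval of the log2 ratio of -0.96 to 0.26.

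**Figure D1:**
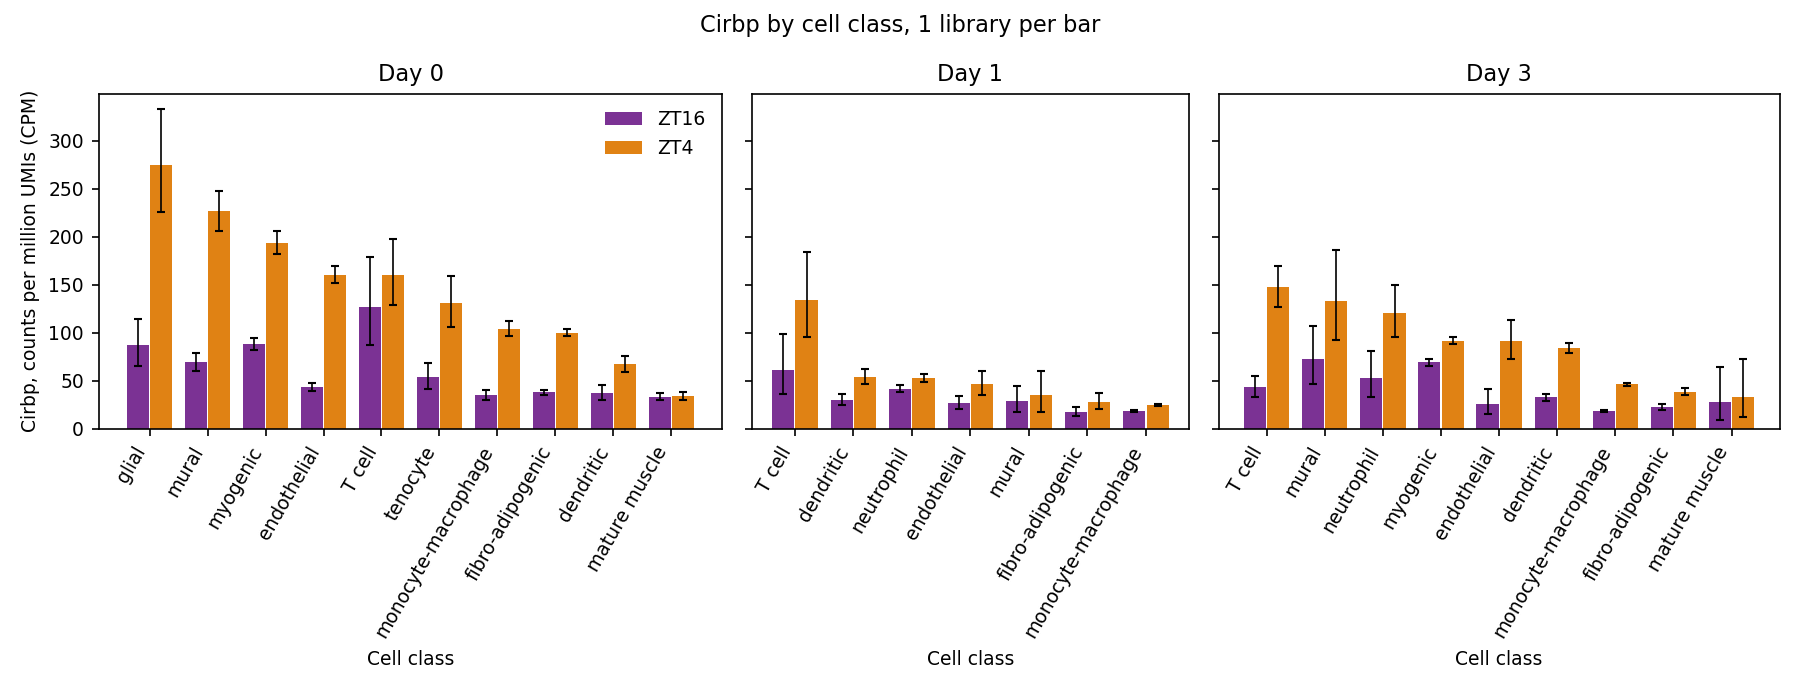
Cirbp level (CPM, y axis) in each cell class (x axis) on days 0, 1 and 3; each bar is 1 library, ZT16 left and ZT4 right, and error bars are 95% Poisson intervals of counting. The ZT16 bar is below the ZT4 bar in each class, and in mature muscle-like droplets of day 0 they stand at 33.0 and 33.9 CPM.

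On day 1 the median ratio over classes was nearer 0 than on the other days, though not in each class. The medians do not cover the same classes: myogenic-like cells were not compared on day 1, and neutrophil-like cells not on day 0. Dendritic-like cells had 30.4 CPM at ZT16 and 53.8 CPM at ZT4 (log2 -0.82, interval -1.18 to -0.48), and endothelial-like cells had 27.0 CPM at ZT16 and 46.4 CPM at ZT4 (log2 -0.78, interval -1.30 to -0.25). The 2 classes with the most cells that day differed by less than 1.5-fold. Monocyte-macrophage-like cells had 18.6 CPM at ZT16 and 24.7 CPM at ZT4 (1107 and 1052 UMIs, log2 -0.41, interval -0.53 to -0.29), and neutrophil-like cells had 41.7 CPM at ZT16 and 52.6 CPM at ZT4 (log2 -0.33, interval -0.51 to -0.16). T cell-like cells, a small class, had 61.5 CPM at ZT16 and 134 CPM at ZT4 (log2 -1.11). The small fibro-adipogenic-like class was also at least 1.5-fold lower. Of all genes measured in these pairs, 15.1% in T cell-like and 17.9% in fibro-adipogenic-like cells were lower by that threshold. Mural-like cells, with 19 UMIs at ZT16 and 12 UMIs at ZT4, had an interval of -1.39 to 0.91.

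The day 1 macrophages were spread differently over clusters at the 2 times, with 2686 cells at ZT16 and 1863 cells at ZT4 in a cluster led by Arg1 and 1103 cells at ZT16 and 1822 cells at ZT4 in one led by Chil3 and Vcan. Within the Arg1 cluster Cirbp had 18.5 CPM at ZT16 and 25.1 CPM at ZT4, and within the Chil3 cluster 17.2 CPM at ZT16 and 23.7 CPM at ZT4. The log2 ratios of -0.44 and -0.47 were near that of the whole class.

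On day 3, endothelial-like cells, a small class on that day, had 25.9 CPM of Cirbp at ZT16 and 91.1 CPM at ZT4 (18 and 81 UMIs, log2 -1.78, interval -2.64 to -1.06), the widest gap of the day. T cell-like cells had 43.4 CPM of Cirbp at ZT16 and 147 CPM at ZT4 (66 and 185 UMIs, log2 -1.76, interval -2.19 to -1.35), dendritic-like cells had 32.6 CPM at ZT16 and 84.0 CPM at ZT4 (log2 -1.36, interval -1.55 to -1.19), and monocyte-macrophage-like cells had 18.0 CPM at ZT16 and 46.2 CPM at ZT4 (log2 -1.36, interval -1.46 to -1.26). The macrophages of that day had a median of 11581 UMIs per cell at ZT16 and 11575 UMIs at ZT4. Fibro-adipogenic-like cells had 22.8 CPM at ZT16 and 38.8 CPM at ZT4 (log2 -0.76, interval -1.01 to -0.53). Myogenic-like cells, now led by Myog and Mymk of differentiating myoblasts, showed the smallest difference of the large classes, with 69.4 CPM at ZT16 and 91.5 CPM at ZT4 (1329 and 2585 UMIs, log2 -0.40, interval -0.50 to -0.30). The mural-like and neutrophil-like classes, each with fewer than 200 cells in at least 1 library, were also at least 1.5-fold lower at ZT16.

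Levels of Cirbp also differed between classes of 1 library. It was highest in T cell-like cells at ZT16 of day 0, at 127 CPM, and in glial-like cells at ZT4 of day 0, at 275 CPM, and lowest on that day in mature muscle-like droplets at both times. Neighbours in the order had counting intervals that met in 9 of 9 pairs at ZT16 and 7 of 10 at ZT4 of day 0, where B cell-like cells were also ranked. At ZT16 the lowest class was the fibro-adipogenic-like one on day 1, at 17.3 CPM, and the macrophages on day 3, at 18.0 CPM. The day 1 value rests on 49 UMIs, and macrophages of that library had 18.6 CPM, so these 2 are not said to differ. Neighbours' intervals met in 4 of 6 pairs at ZT16 of day 1 and 7 of 8 at ZT16 of day 3.

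Within clusters, the ratio of Cirbp was below 0 on the log2 scale in 16 of 17 clusters on day 0, 11 of 11 on day 1 and 13 of 13 on day 3, and at least 1.5-fold lower in 14, 4 and 12 of them. The exception was a mature muscle-like cluster led by Actc1 and Myh4, with 36.3 CPM at ZT16 and 34.2 CPM at ZT4. The 3 fibro-adipogenic-like clusters of day 0, led by Crispld2, Pi16 and Gdf10, had log2 ratios of -1.46, -1.24 and -1.59.

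Rbm3 (ENSMUSG00000031167, chrX:8138975-8145880, minus strand) encodes the other cold-inducible protein, known in mouse brain for its part in synapse maintenance on cooling. The noncoding gene Rbm3os overlaps it on the opposite strand. Its difference between the times did not run the same way in all classes: 4 of 10 classes were at least 1.5-fold lower at ZT16 on day 0, 0 of 7 on day 1 and 0 of 9 on day 3, and the median log2 ratios were -0.22, 0.20 and -0.26. The day 0 median was -0.38 with dividing cells left out, and separate clustering of the libraries gave -0.36.

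On day 0, endothelial-like cells had 240.1 CPM of Rbm3 at ZT16 and 422 CPM at ZT4 (log2 -0.81, interval -0.89 to -0.74), and mural-like cells had 265 CPM at ZT16 and 405 CPM at ZT4 (log2 -0.61, interval -0.75 to -0.47). The smaller T cell-like and glial-like classes were also lower, with log2 ratios of -0.97 and -0.87. Of all genes measured, 12.7% in endothelial-like, 10.2% in mural-like, 8.77% in T cell-like and 8.44% in glial-like cells were at least 1.5-fold lower. In contrast, myogenic-like cells had 441 CPM at ZT16 and 448 CPM at ZT4, and dendritic-like cells had 735 CPM at ZT16 and 699 CPM at ZT4, both with intervals of the ratio that include 0. Fibro-adipogenic-like cells had 263 CPM at ZT16 and 295 CPM at ZT4 and macrophages 289 CPM at ZT16 and 349.8 CPM at ZT4, both lower by less than 1.5-fold. Mature muscle-like droplets were higher at ZT16 by less than 1.5-fold, with 83.7 CPM at ZT16 and 61.7 CPM at ZT4 (log2 0.44, interval 0.27 to 0.61). So in the class where Cirbp was lowest relative to ZT4, the endothelial-like one, Rbm3 was lower as well. In satellite cells, taken as a whole class, Cirbp was lower and Rbm3 was not. Of these satellite cells, 58 at ZT16 and 5 at ZT4 counted as dividing. Their part in the Rbm3 ratio of the class was not tested.

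On day 1, 6 of 7 classes had more Rbm3 at ZT16 than at ZT4, though none by 1.5-fold, and the counting interval lay above 0 in 4 of the 7. Fibro-adipogenic-like cells came nearest, with 1302 CPM at ZT16 and 881 CPM at ZT4 (log2 0.56, interval 0.48 to 0.65), and macrophages had 944 CPM at ZT16 and 819.8 CPM at ZT4 (log2 0.20). Neutrophil-like cells had 335 CPM at ZT16 and 329 CPM at ZT4, and their interval includes 0. On day 3, 8 of 9 classes had less Rbm3 at ZT16 than at ZT4, with 480.3 CPM at ZT16 and 629 CPM at ZT4 in macrophages (log2 -0.39) and 739 CPM at ZT16 and 1100 CPM at ZT4 in T cell-like cells (log2 -0.57).

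Srsf5 (ENSMUSG00000021134, chr12:80945504-80950507, plus strand) encodes an SR protein that binds purine-rich exonic enhancers. It was at least 1.5-fold lower at ZT16 in 5 of 10 classes on day 0, 4 of 7 on day 1 and 4 of 9 on day 3. The median log2 ratios were -0.58, -0.67 and -0.46. Of all gene-by-class comparisons, 7.75%, 11% and 5.4% were lower by that threshold on the 3 days. Srsf5 was selected on this contrast, so nothing is read from its counts. Satellite cells showed the widest gap among the large classes, with 138 CPM at ZT16 and 313 CPM at ZT4 of day 0 (1071 and 1627 UMIs, log2 -1.18, interval -1.29 to -1.07). In the same pair the summed level of the G2M list was 582 CPM at ZT16 and 18.1 CPM at ZT4, that of the S phase list 617 CPM at ZT16 and 207 CPM at ZT4, and 58 cells at ZT16 and 5 cells at ZT4 counted as dividing. Their part in the gap of these cells was not tested. Endothelial-like cells had 246 CPM at ZT16 and 384 CPM at ZT4 (log2 -0.65), mural-like cells 248 CPM at ZT16 and 373 CPM at ZT4 (log2 -0.59), and mature muscle-like droplets 54.9 CPM at ZT16 and 94.0 CPM at ZT4 (log2 -0.77). The droplets in which Cirbp hardly differed thus held less Srsf5 at ZT16. Of all genes measured in the same pairs, 7.5% in satellite cells, 12.7% in endothelial-like cells, 10.2% in mural-like cells and 5.25% in these droplets were at least 1.5-fold lower. Fibro-adipogenic-like cells, macrophages and dendritic-like cells were below their ZT4 level by less than 1.5-fold, with log2 ratios of -0.50, -0.57 and -0.23.

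In neutrophils the sign of the Srsf5 ratio was positive. Neutrophil-like cells of day 1 had 629 CPM at ZT16 and 571 CPM at ZT4 (6847 and 6724 UMIs, log2 0.14, interval 0.09 to 0.19), and those of day 3 had 631 CPM at ZT16 and 524 CPM at ZT4 (log2 0.27, interval 0.03 to 0.51). These were the only 2 of 26 comparisons of Srsf5 above 0, neither reached 1.5-fold, and at both times neutrophils held the highest Srsf5 level of the classes on these days. The day 1 macrophages beside them had 124 CPM at ZT16 and 218 CPM at ZT4 (log2 -0.81, interval -0.86 to -0.77), with log2 ratios of -0.70 within the Arg1 cluster and -0.71 within the Chil3 cluster. On day 3, macrophages had 96.4 CPM at ZT16 and 162 CPM at ZT4 (log2 -0.74) and myogenic-like cells 161 CPM at ZT16 and 274 CPM at ZT4 (log2 -0.77, interval -0.83 to -0.71). In those myoblasts the Srsf5 gap was wider than that of Cirbp in the same cells.

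Srsf2, Srsf3 and Srsf7 encode SR proteins as well, of which SRSF3 is the smallest of the family and SRSF7 carries a zinc knuckle. Srsf2 (ENSMUSG00000034120, chr11:116849901-116853094, minus strand) lies across from Mettl23 and Mfsd11 on the opposite strand. Srsf3 (ENSMUSG00000071172) lies at chr17:29032628-29043373 on the plus strand and Srsf7 (ENSMUSG00000024097) at chr17:80200080-80207307 on the minus strand. Together they were at least 1.5-fold apart between the times in the T cell-like cells of day 1 only. There Srsf2 had 119 CPM at ZT16 and 230.1 CPM at ZT4 (33 and 65 UMIs). Srsf3 had 235 CPM at ZT16 and 354 CPM at ZT4 (65 and 100 UMIs). Of all genes measured in that pair, 15.1% were lower by that threshold. The median log2 ratios over the comparisons of all days were -0.08 for Srsf2, -0.01 for Srsf3 and 0.12 for Srsf7. Srsf7 was above its ZT4 level at ZT16 in 18 of 25 comparisons, although its day 3 median of 0.01 turned to -0.05 when ratios were centred on the median of all genes. It was above, for example, with 352 CPM at ZT16 and 279 CPM at ZT4 in dendritic-like cells of day 1 (log2 0.34, interval 0.22 to 0.46).

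Hnrnpdl (ENSMUSG00000029328, chr5:100033577-100039664, minus strand) encodes an hnRNP D-like protein, whose human gene is mutated in a limb-girdle muscular dystrophy. It was below its ZT4 level at ZT16 in 24 of 25 comparisons, the exception being T cell-like cells of day 0. The counting interval lay below 0 in 18 of the 25. Hnrnpdl was at least 1.5-fold lower in 0 of 10 classes on day 0, 2 of 7 on day 1 and 2 of 8 on day 3. Of all gene-by-class comparisons, 7.75%, 11% and 5.4% were lower by that threshold on those days. Nothing is read from these counts, as Hnrnpdl was selected on this contrast. Satellite cells of day 0 had 137 CPM at ZT16 and 167 CPM at ZT4 (log2 -0.28, interval -0.41 to -0.15), and fibro-adipogenic-like cells had 88.7 CPM at ZT16 and 105 CPM at ZT4 (log2 -0.25, interval -0.33 to -0.17). Days 0, 1 and 3 had median log2 ratios over classes of -0.29, -0.52 and -0.49, and thinning each cell to 1000 UMIs moved that of day 1 to -0.33. Endothelial-like cells of day 1 had 135 CPM at ZT16 and 217 CPM at ZT4 (log2 -0.68, interval -0.91 to -0.45), dendritic-like cells of day 3 had 56.9 CPM at ZT16 and 96.3 CPM at ZT4 (log2 -0.76, interval -0.90 to -0.62), and T cell-like cells of day 3 had 86.1 CPM at ZT16 and 135 CPM at ZT4 (log2 -0.64). Macrophages of day 1 had 92.7 CPM at ZT16 and 133 CPM at ZT4 and myogenic-like cells of day 3 had 167 CPM at ZT16 and 245 CPM at ZT4, both short of 1.5-fold.

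Clk1 (ENSMUSG00000026034, chr1:58410189-58424066, minus strand) encodes a nuclear kinase of SR proteins, whose own transcript is known for a retained intron. It was less than 1.5-fold apart between the times in each of 25 comparisons. On day 0 the log2 ratios lay between -0.37 and 0.37, as in satellite cells with 249 CPM at ZT16 and 249.8 CPM at ZT4 and endothelial-like cells with 224 CPM at ZT16 and 209.9 CPM at ZT4. On day 1 all 7 classes were below their ZT4 level at ZT16, but the counting interval lay below 0 in only 3 of them. Macrophages had 94.4 CPM at ZT16 and 124 CPM at ZT4 (log2 -0.39, interval -0.45 to -0.34), while T cell-like cells had a log2 ratio of -0.01 (interval -0.48 to 0.47). The median log2 ratio of that day was -0.29, and -0.08 with each cell thinned to 1000 UMIs.

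**Figure D2:**
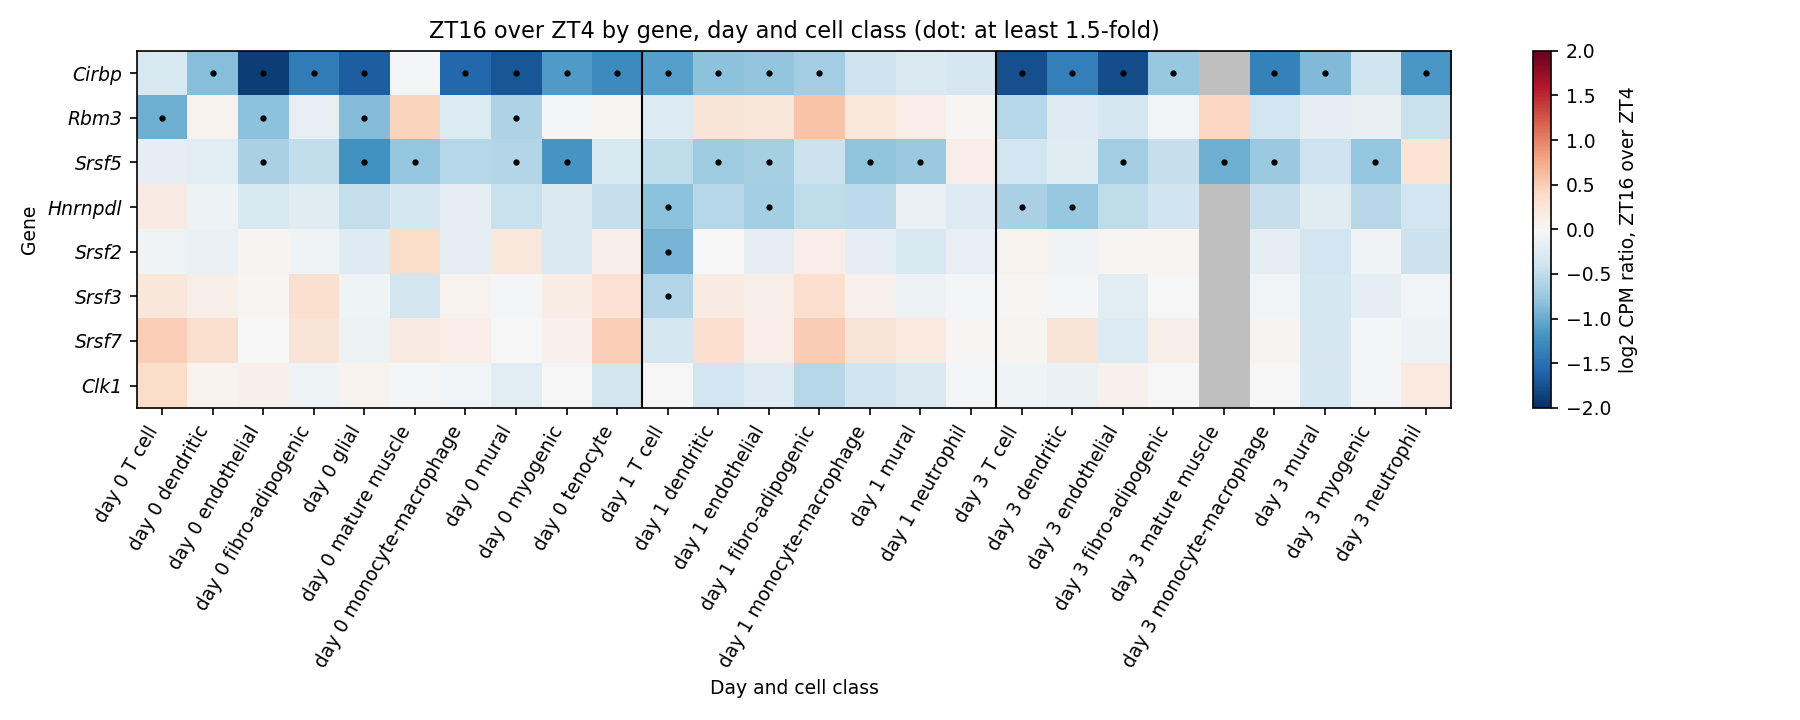
Log2 ratio of CPM, ZT16 over ZT4 (colour, blue lower and red higher at ZT16), for the 8 genes (y axis) in each day and cell class (x axis); dots mark at least 1.5-fold and grey marks fewer than 30 UMIs. Dots are spread along Cirbp (19 of 25 comparisons) and Srsf5 (13 of 26), and Srsf7 and Clk1 have none.

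Counted together, the members were at least 1.5-fold lower at ZT16 in 17 of 80 comparisons on day 0, 12 of 56 on day 1 and 13 of 66 on day 3, against 7.75%, 11% and 5.4% of all comparisons, and higher in none. As 3 members were selected on this contrast, nothing is read from these shares. Cirbp was at least 1.5-fold lower in 19, Srsf5 in 13, Rbm3 and Hnrnpdl in 4 each, and Srsf2 and Srsf3 in 1 each.

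Lists of related genes were lower at ZT16 in no larger share of comparisons than all genes were on any of the 3 days. Of the other SR protein genes, 3 of 98 comparisons were at least 1.5-fold lower and 4 higher on day 0, 4 of 68 lower and 6 higher on day 1, and 0 of 79 lower and 3 higher on day 3. All 6 higher comparisons of day 1 were of Srsf9, in 6 of 6 classes that held 30 UMIs (median log2 0.86). The other kinases of SR proteins were lower in 0 of 73, 5 of 48 and 1 of 55 comparisons on days 0, 1 and 3, and higher in 1 on each day, with Dyrk1a lower in 3 of 7 classes on day 1. Genes of other hnRNP proteins were lower in 6 of 244, 8 of 171 and 3 of 197 and higher in 3, 0 and 2, with Hnrnpl, a factor that binds CA repeats, lower in 3 of 10 classes on day 0. Core spliceosome genes were lower in 2 of 169, 0 of 118 and 3 of 137 and higher in 2, 0 and 4.

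A further list of RNA-binding proteins was lower in 7 of 177, 13 of 122 and 1 of 142 comparisons on days 0, 1 and 3, and higher in 10, 1 and 7. Its day 1 share of 10.7% lower was near the 11% of all comparisons, so no fall of the list is read. The genes named next were picked as among those of the list most often past 1.5-fold. On day 1, Son, a protein of nuclear speckles, was lower in 4 of 7 classes (median log2 -0.60) and Rbmx in 3 of 6 (median -0.52), and on day 3 Rbm10 was higher in 4 of 6 (median 0.65). The heat shock list held more higher than lower calls on each day. There were 6 lower and 40 higher of 190 comparisons on day 0, and 11 lower and 18 higher of 126 on day 1. Day 3 had 1 lower and 15 higher of 146. Higher calls made up 21.1%, 14.3% and 10.3% of its comparisons on the 3 days, against 7.71%, 6.99% and 7.12% of all comparisons. Hsph1, a cochaperone of the HSP70 family, was higher in 7 of 10 classes on day 0 (median log2 1.08) and 4 of 6 on day 3 (median 1.40). Cryab, a small heat shock protein, was higher in 5 of 10 on day 0 and 5 of 6 on day 1. It was also a leading gene of an unnamed cluster with mature muscle markers and low depth. Unnamed clusters held 520 cells at ZT16 and 325 cells at ZT4 of day 1. The part of RNA from such droplets in the Cryab ratios was not tested.

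The remaining lists are given for days 0, 1 and 3 in that order. Of all genes' comparisons, 7.75%, 11% and 5.4% were lower on these days and 7.71%, 6.99% and 7.12% higher. Clock genes were lower at ZT16 in 17 of 95, 7 of 50 and 3 of 64 comparisons and higher in 51, 8 and 22. Glucocorticoid response genes were lower in 1 of 72, 4 of 47 and 1 of 57 and higher in 44, 8 and 16. Both lists thus held mostly higher calls on days 0 and 3, when Cirbp was widely lower. Clock genes were also lower in 17.9% of their comparisons on day 0, against 7.75% of all genes' comparisons. Immediate early genes, which tissue dissociation induces, were lower in 3 of 139, 8 of 93 and 6 of 113 and higher in 14, 12 and 3, and nuclear-retained RNAs were lower in 2 of 38, 3 of 24 and 1 of 29 and higher in 5, 1 and 0. S phase genes were lower in 6 of 119, 4 of 92 and 1 of 108 and higher in 47, 32 and 6. G2M genes were lower in 2 of 73, 11 of 51 and 9 of 110 and higher in 61, 17 and 18.

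**Figure D3:**
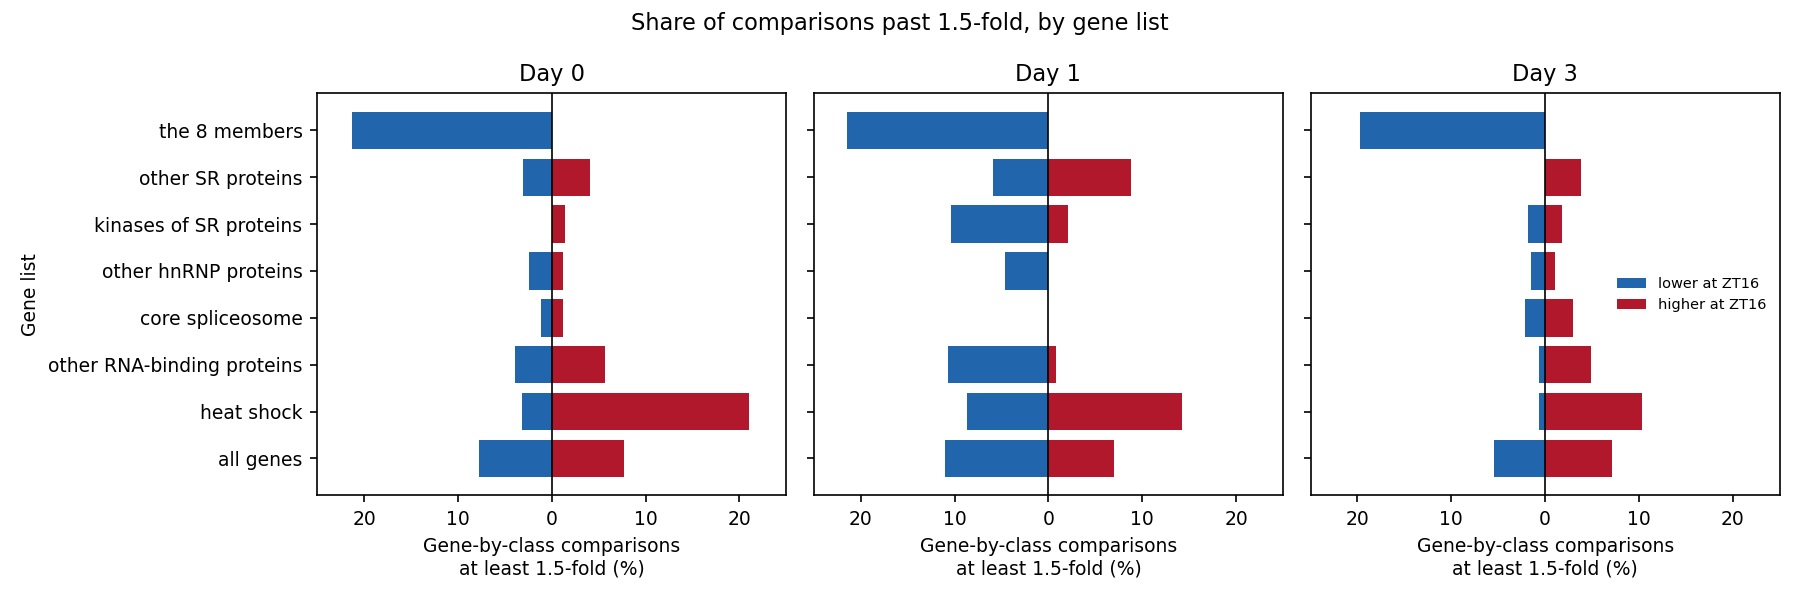
Share of gene-by-class comparisons at least 1.5-fold lower (blue, left) or higher (red, right) at ZT16 (x axis, percent) for the 8 members, 6 related gene lists and all genes (y axis) on days 0, 1 and 3. The members' bars point to lower levels (21.25% on day 0), on which 3 of the 8 were selected, and the heat shock bars are longer towards higher levels.

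Further measures that moved with collection time are given beside these results. In satellite cells of day 0, 20 of 20 G2M genes (median log2 4.65) and 20 of 20 S phase genes (median log2 2.19) were at least 1.5-fold higher at ZT16, and dividing cells were 5.59% at ZT16 and 0.562% at ZT4. With dividing cells left out, the median log2 ratio of Cirbp on days 0, 1 and 3 was -1.38, -0.82 and -1.25, and that of Srsf5 was -0.57, -0.65 and -0.46. The summed heat shock level of endothelial-like cells on day 0 was 13507 CPM at ZT16 and 8976 CPM at ZT4, that of mural-like cells 16005 CPM at ZT16 and 11008 CPM at ZT4, and that of satellite cells 9705 CPM at ZT16 and 10774 CPM at ZT4. Median depth on day 1 was 13512 UMIs at ZT16 and 10023 UMIs at ZT4 in macrophages, while neutrophil-like cells had 2474 UMIs at ZT16 and 2349 UMIs at ZT4. With each cell thinned to 1000 UMIs the median log2 ratio of Cirbp was -1.21 on day 0, -0.51 on day 1 and -1.23 on day 3. The log2 ratios of all genes had a median of -0.13 in endothelial-like cells of day 0 and -0.13 in fibro-adipogenic-like cells of day 1. The part of heat shock genes in the differences was not tested.

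Across the 26 class comparisons the log2 ratio of Rbm3 had a Pearson r of 0.61 with that of Cirbp, 10th highest of 703 genes with 30 UMIs in every comparison. Grcc10 (r = 0.74), Rex1bd (0.71), Cox8a (0.68), Calm2 (0.68) and Acaa2 (0.67) headed the order, and Srsf5 stood 470th with 0.04. The points share 6 libraries and differ in depth, so these values are a description. Of the 703 genes, Gm10076 was at least 1.5-fold lower at ZT16 in the most comparisons, 16 of 26, followed by mt-Nd4l with 15 and Srsf5 with 13. Further down the order, mt-Nd5 was lower in 8, Rpl35 in 7 and Txnip in 6, and Rbm3 was 10th with 4. Cirbp had fewer than 30 UMIs in the mature muscle-like droplets of day 3 and so is not in that order. Its ratio in that pair, from 5 UMIs at ZT16 and 6 UMIs at ZT4, is still among the 26 points behind each r.

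Levels after injury were set against uninjured muscle in the same way, and both injured days share the day 0 libraries. Here a class counts as changed only if it differed from day 0 by at least 1.5-fold in the same direction at both ZT16 and ZT4. On day 1 the members were higher than on day 0 in 14 of 48 comparisons (29.2%), against 12.2% of all genes' comparisons, and lower in 8 of 48 (16.7%), against 23.5%. On day 3 they were higher in 6 of 64, against 12.3%, and lower in 7 of 64, against 17%. The members' shares of 9.38% and 10.9% on day 3 were below the background in both directions.

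Rbm3 was higher on day 1 than on day 0 in 5 of 6 classes and on day 3 in 5 of 8. Fibro-adipogenic-like cells had 1302 CPM on day 1 against 263 CPM on day 0 at ZT16 (4.96-fold) and 881 CPM on day 1 against 295 CPM on day 0 at ZT4 (2.98-fold). Macrophages had 944 CPM on day 1 against 289 CPM on day 0 at ZT16 and 819.8 CPM against 349.8 CPM at ZT4, and endothelial-like cells had 973 CPM against 240.1 CPM at ZT16 and 830.4 CPM against 422 CPM at ZT4. On day 3, myogenic-like cells had 1114 CPM against 441 CPM on day 0 at ZT16 and 1241 CPM against 448 CPM at ZT4. In these classes Rbm3 was thus high in the injured libraries at both times.

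Cirbp, the other cold-inducible gene, was lower on day 1 than on day 0 in 4 of 6 classes and on day 3 in 3 of 8, and higher in none. Macrophages had 18.6 CPM on day 1 against 35.1 CPM on day 0 at ZT16 and 24.7 CPM on day 1 against 104 CPM on day 0 at ZT4. Fibro-adipogenic-like cells had 17.3 CPM on day 1 against 38.0 CPM on day 0 at ZT16 and 28.1 CPM against 100.2 CPM at ZT4. In myogenic-like cells of day 3 the level fell past 1.5-fold at ZT4 alone, with 69.4 CPM against 88.2 CPM on day 0 at ZT16 and 91.5 CPM against 194 CPM at ZT4. In macrophages and fibro-adipogenic-like cells of days 1 and 3, Cirbp was below and Rbm3 above its day 0 level at both times.

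Among the splicing factors, Srsf3 was higher on day 1 than on day 0 in 4 of 6 classes, with 683 CPM against 263 CPM at ZT16 and 541 CPM against 209.8 CPM at ZT4 in fibro-adipogenic-like cells. Srsf7 was higher in 3 of 6 classes on day 1, and in the same cells had 405 CPM against 124 CPM at ZT16 and 284 CPM against 104 CPM at ZT4. Srsf2 and Hnrnpdl were higher on day 1 in the fibro-adipogenic-like class only. By day 3 most of these levels were less than 1.5-fold from day 0: Srsf3 was higher in myogenic-like cells only, with 646 CPM on day 3 against 405 CPM on day 0 at ZT16 and 737 CPM against 367 CPM at ZT4, and Srsf7 and Hnrnpdl in no class. Srsf5 was lower in macrophages on both days, with 124 CPM on day 1 against 258 CPM on day 0 at ZT16 and 218 CPM against 383 CPM at ZT4, and Srsf2 was lower in macrophages on day 3.

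Clk1 was lower on day 1 than on day 0 in 3 of 6 classes and on day 3 in 2 of 8. Its largest difference was in myogenic-like cells, with 58.1 CPM on day 3 against 249 CPM on day 0 at ZT16 (log2 -2.10, interval -2.21 to -1.99) and 59.6 CPM on day 3 against 249.8 CPM on day 0 at ZT4 (log2 -2.07, interval -2.17 to -1.96). Macrophages had 94.4 CPM on day 1 against 289 CPM on day 0 at ZT16 and 124 CPM against 299.6 CPM at ZT4. Neutrophil-like cells, too few on day 0 to compare, held 355 CPM at ZT16 and 362 CPM at ZT4 of day 1, the highest Clk1 level of the classes on that day.

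**Figure D4:**
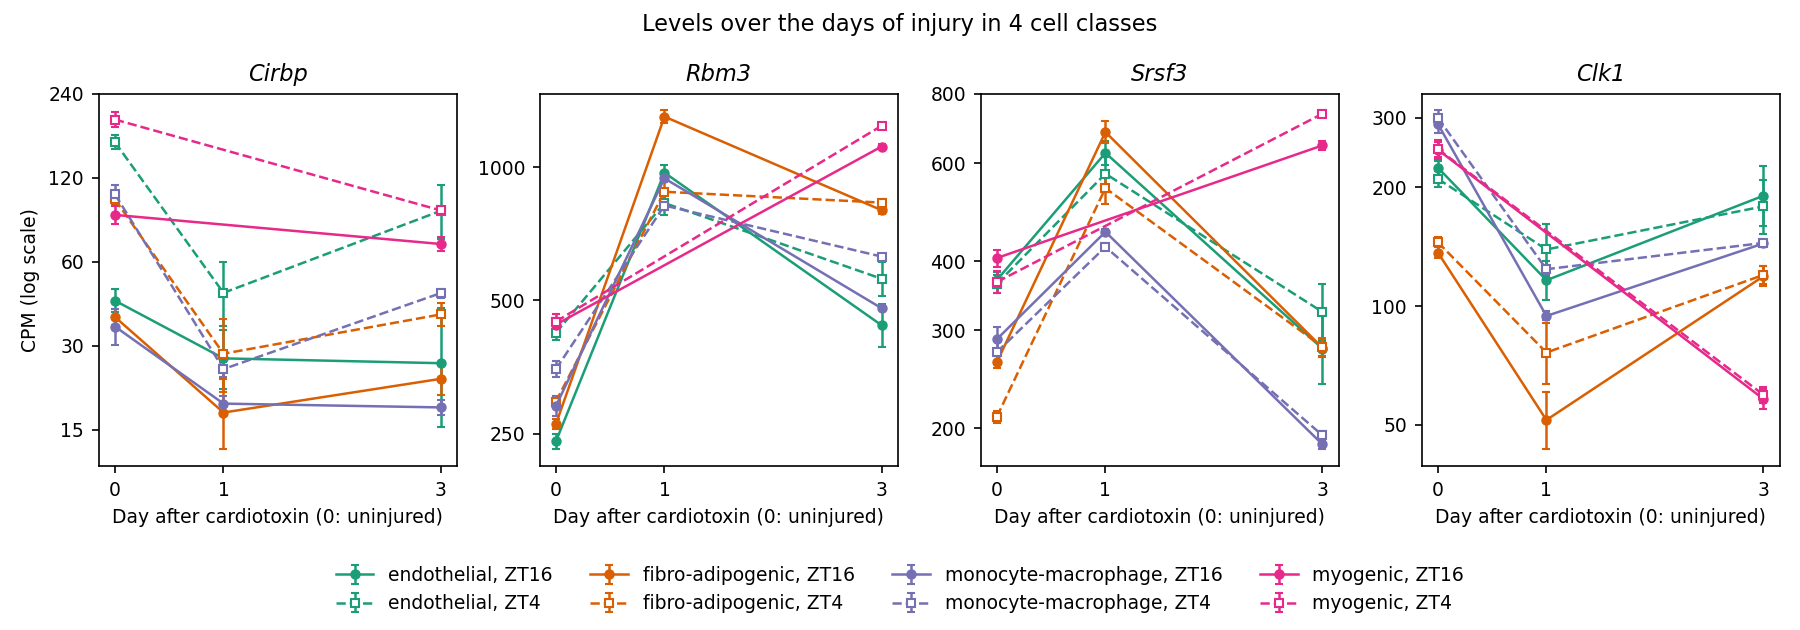
Levels (CPM, log scale, y axis) of Cirbp, Rbm3, Srsf3 and Clk1 on days 0, 1 and 3 (x axis) in 4 cell classes (colours), ZT16 with filled circles and solid lines and ZT4 with open squares and dashed lines, 1 library per point with 95% Poisson intervals; myogenic-like cells have no day 1 point. Rbm3 is above its day 0 level on day 1 in the 3 classes with a value, Cirbp is below it, and Clk1 in myogenic-like cells reaches 58.1 CPM at ZT16 and 59.6 CPM at ZT4 on day 3.

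The classes of injured and uninjured muscle were held by different clusters, so the comparisons across days set different cell states side by side. The macrophages of day 0 were mostly of the cluster led by Lyve1, those of day 1 of the Arg1 and Chil3 clusters and those of day 3 of clusters led by Calhm6, Gpnmb and Ccl8. Cells with at least 3 UMIs of G2M genes made up 85.8% of myogenic-like cells at ZT16 and 87.3% at ZT4 of day 3, against 5.59% at ZT16 and 0.562% at ZT4 of day 0. Their median depth was 41936 UMIs at ZT16 and 44306.5 UMIs at ZT4 of day 3, against 6761 UMIs at ZT16 and 5589 UMIs at ZT4 of day 0. For fibro-adipogenic-like cells that share was 42.6% at ZT16 and 31.5% at ZT4 of day 1, against 1.07% at ZT16 and 0.386% at ZT4 of day 0. The part of division and depth in the differences between days was not tested.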

How the data were processed

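UMI counts per gene and barcode of 6 libraries were used as deposited. Per the file headers the count matrices were written by Cell Ranger 6.1.2, whereas Cell Ranger 1.0.0 and mm10 stand in the submitters' processing notes. The members, lists and tests were chosen with earlier results of these data known.

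A barcode was kept as a cell if it had 200 or more detected genes, 500 or more UMIs and a mitochondrial share no higher than 10%. Doublets were scored by simulated doublets; the automatic threshold marked 1 cell and 3 cells in the day 3 ZT16 and ZT4 libraries, so the highest-scoring 0.8% per 1000 barcodes were removed from each library instead. Cells of all libraries were clustered together with no batch correction (scanpy 1.11.5, leidenalg 0.10.2, 2000 variable genes without the listed genes, 30 components, 15 neighbours, resolution 1), and clusters were named by at least 3 detected markers. UMIs were summed per class and library. Ratios carry 0.5 added UMI, and intervals are 95% exact conditional binomial ones (scipy 1.17.1), checked on simulated counts. Classes with at least 50 cells in both libraries were compared, and those with at least 200 are described singly. As each group is 1 library, differences were not tested. Named genes of a list are those past 1.5-fold in the most classes. Some genes that this rule or the ranking selects are not reported here. Dividing cells had at least 3 UMIs of G2M genes. Gene coordinates are from GENCODE vM21. In all, 16 alternative settings were computed, 2 of them chosen after seeing the data.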

Additional observations from a re-analysis of the deposited data

How the results depend on the processing

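Counts of members past the threshold were recomputed under 16 alternative settings for collection time and 14 for days. With a 2-fold threshold, lower comparisons at ZT16 numbered 9, 1 and 5 on days 0, 1 and 3, against 17, 12 and 13 at 1.5-fold. Higher ones, 0 on each day, became 1 on day 0 with doublets kept, 4 on day 0 and 1 on day 3 with cells thinned to 1000 UMIs, and 1 on each day with free RNA subtracted. On day 1 they became 5 with each library clustered alone, 2 with ratios centred on the median of all genes and 1 with totals without mitochondrial and ribosomal protein genes; on day 3 they became 1 with the mean of CPM per cell and 1 with no minimum of UMIs. Against day 0, a 2-fold threshold left 5 higher and 3 lower on day 1 and 3 higher and 4 lower on day 3, and centring left 4 lower on day 1. The cause of these moves was not tested.

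For day 0 the Cirbp median lay between -1.42 and -1.21, for day 1 between -0.82 and -0.51, for day 3 between -1.39 and -1.20. Medians of Srsf2, Srsf3 and Clk1 on all days, and of Srsf7 on days 1 and 3, moved by over 1.5 times under at least 1 setting. So did those of Rbm3 on day 0 and of Hnrnpdl on day 1. The signs of the Clk1 medians of days 0 and 3 and of the Srsf7 median of day 3 changed with the setting. Thinning left out 187 to 777 cells per library. No paired analysis was possible because the labels carry no replicate numbers and each group is 1 library.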
